A study of Homo sapiens with 8 samples.

Results

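The genes described here are 41 regulators of apoptosis, chosen by name from the BCL2 family, the caspases, the death receptors with their ligand and adaptors, and the proteins that leave mitochondria during cell death. Of the 41, 39 had an array feature annotated with that symbol alone, out of 33616 genes with a symbol, and each of the 39 had 1 feature. BBC3 and RIPK1 had no feature annotated with their symbol alone and were not analysed. CASP1 stood under the filter on low values on all 8 arrays, which left 38 genes tested out of 23854. Of these 38, 9 act against apoptosis, 26 promote it, and 3 (TNFRSF1A, TRADD and CASP4) belong to the tumour necrosis factor receptor arm, which can signal survival or death, or to the inflammatory caspases.

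The RNA came from PC-3, a human prostate cancer cell line known to lack functional p53, measured on Clariom D arrays. Control cells are labelled as non-treated, with no vehicle named. The other groups received calcitriol (10 nM), the active form of vitamin D, or TGF-β1 (5 ng/mL), a cytokine whose receptors act through SMAD proteins, or the 2 agents in combination, for 24 h. Each of the 4 groups has 2 arrays, replicates A and B, stated to be independent experiments, and all cells of a group share 1 cell line and 1 dose. The design sets each agent, and both together, against untreated cells.

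Apoptosis runs through a mitochondrial and a receptor route. In the mitochondrial route BH3-only proteins bind the survival proteins of the BCL2 family and free the effectors BAX and BAK1, which open the outer membrane, so that cytochrome c can assemble APAF1 and caspase-9 into the apoptosome. In the receptor route ligands such as TRAIL engage death receptors, whose adaptor FADD recruits caspase-8 or caspase-10. Many of these proteins are controlled by cleavage, phosphorylation or location, none of which an RNA array measures, and cell death itself was not measured here.

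Array medians lay between 4.33 and 4.35 on the log2 scale, and the background level, set at the 95th percentile of features without a target, lay between 4.62 and 4.90. Across genes, r was 0.988 to 0.991 between the replicates of a group and 0.977 to 0.990 between groups. The epithelial genes KRT8, KRT18, KRT19, EPCAM and CDH1 stood between 9.02 and 11.45 on all 8 arrays. Of the leukocyte genes, PTPRC stood between 3.84 and 4.79 and CD3E between 4.52 and 5.16, near background. Of the endothelial genes, PECAM1 stood near it at 4.30 to 5.03, but CDH5, at 5.61 to 6.44, was above it on all 8 arrays. Of the fibroblast genes, the collagens COL1A1 (8.33 to 8.95) and COL1A2 (7.56 to 7.95) were above background on all arrays, while DCN, at 4.54 to 5.19, stood near it. The luminal prostate gene KLK3 (6.64 to 7.14), a gene that PC-3 is known to express little of, was above background on all arrays. The treatments registered in their target genes. CYP24A1, which inactivates calcitriol, rose by 4.46 with calcitriol (adjusted p = 0.0247), and the TGF-β target TGFBI rose by 3.27 with TGF-β1 (adjusted p = 0.000464).

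None of the apoptosis regulators passed the test in any of the 6 comparisons made in limma with Benjamini-Hochberg adjustment over all genes. The count was 0 of 38 with calcitriol, where 0.00838% of all tested genes passed, 0 of 38 with TGF-β1, where 0.608% passed, and 0 of 38 with the combination, where 2.27% passed. It was also 0 of 38 for the combination against calcitriol (0.587% of all genes) and for the combination against TGF-β1 (0% of all genes). For the interaction, which is 0 where the log2 effects of both agents add up, it was 0 of 38 too (0% of all genes). Between the combination and TGF-β1 even CYP24A1 failed, at a difference of 4.09 (adjusted p = 0.0935), and with calcitriol only 2 of all genes passed. A count of 0 with calcitriol, against TGF-β1 or for the interaction therefore says little about the members. The lowest adjusted p of a member was 0.655 with calcitriol, 0.123 with TGF-β1 and 0.0631 with the combination. Moderation of the variance by its trend with expression level, in place of a common prior, called 12 members with the combination, 4 higher and 8 lower, where 12.6% of all genes were called. In a refit on protein-coding genes alone, which changes both the number of tests and the variance prior, 3 members passed with the combination. There 6.29% of genes did.

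At an unadjusted p under 0.05, 2 members stood out with calcitriol (5.26% of them, against 7.34% of all genes and 6.71% of protein-coding genes). With TGF-β1 there were 5 (13.2%, against 12.6% of all genes and 14.3% of protein-coding genes). Both shares are near the background. With the combination there were 17 (44.7%, against 23.8% and 25.5% in the same order), 5 above control and 12 below. Among the 17 are CASP10 (above) and TNFRSF10D (below), which are at or near background. CASP10 is also among the 2 with calcitriol and the 5 with TGF-β1. At that level 8.9% of all genes were above and 14.9% below, and the split was more uneven among protein-coding genes, at 5.38% above and 20.1% below. Whether the list differs from other genes was not tested.

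The same arrays can be read without a model. In the combination 24 of the 38 members lay below both control arrays on both treated arrays (63.2%, against 33.7% of all genes and 43.6% of protein-coding genes), and 5 lay above both (13.2%, against 20.6% and 14.2%). With TGF-β1, 17 lay below (44.7%, against 26.1% and 32%) and 5 above (13.2%, against 17.1% and 14.7%). With calcitriol, 9 lay below (23.7%, against 23.2% and 28.3%) and 5 above (13.2%, against 13.5% and 10%). CASP10 is among the 5 above in each comparison, although no array of any group lay above background for it. It exceeded the filter level of 4.34 on treated arrays only, so its place above control is not evidence of a rise. TNFRSF10D, which is near background, is among the 24 below in the combination.

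The median log2 difference of the 38 members from control was -0.02 with calcitriol, -0.10 with TGF-β1 and -0.20 with the combination, beside medians of -0.05, -0.06 and -0.12 over protein-coding genes. By array, the median of the members stood at -0.22 and -0.15 in combination replicates A and B, where protein-coding genes stood at -0.12 and -0.10. The whole protein-coding class was thus low in the combination, while pseudogenes had a median of 0.10. The gap between the array's positive and negative control features was also lower, going from 7.03 ± 0.015 in untreated cells (log2, SD, n = 2) to 6.98 ± 0.064 after calcitriol, 6.93 ± 0.025 after TGF-β1 and 6.74 ± 0.051 after the combination. Its part in the members' values was not tested. After cyclic loess over protein-coding genes, which brought their median in the combination to -0.0043, the members had a median of -0.08, and 6 in place of 12 stood below control at an unadjusted p under 0.05 (15.8%, against 10.6% of protein-coding genes). Those no longer below at that level were BID (-0.36), BCL2L11 (-0.28), TNFRSF1A (-0.22), TRADD (-0.21), FAS (-0.18) and CASP2 (-0.12), of which the last 4 shrank by over 1.5 times, as did, among others, BCL2L2 (-0.13), BAX (-0.14), BAK1 (-0.11) and TNFRSF10B (-0.09). The 5 above, with CASP10 at background among them, stayed above at that level (13.2%, against 12.1% of protein-coding genes). The members' median with calcitriol turned to 0.02, and in the combination the signs of BCL2L1, CASP6, CASP9 and CFLAR turned.

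By role, the 26 pro-apoptotic genes had a median of -0.20 in the combination, -0.08 after loess, and 20 of the 26 (76.9%) had a negative difference. Such a difference was found for 58.6% of all genes and 69.1% of protein-coding genes. After loess 18 had one (69.2%), against 50.8% of protein-coding genes. The 9 anti-apoptotic genes had a median of -0.11, which became 0.0018 after loess, with 6 negative differences before and 4 after. At an unadjusted p under 0.05, 2 pro-apoptotic genes stood above control and 8 below, and 3 anti-apoptotic genes stood above and 2 below. These are to be read against the 5.38% above and 20.1% below among protein-coding genes. The counts include CASP10 (pro-apoptotic, above) and TNFRSF10D (anti-apoptotic, below), which are at or near background. A difference between these classes was not tested.

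**Figure D1:**
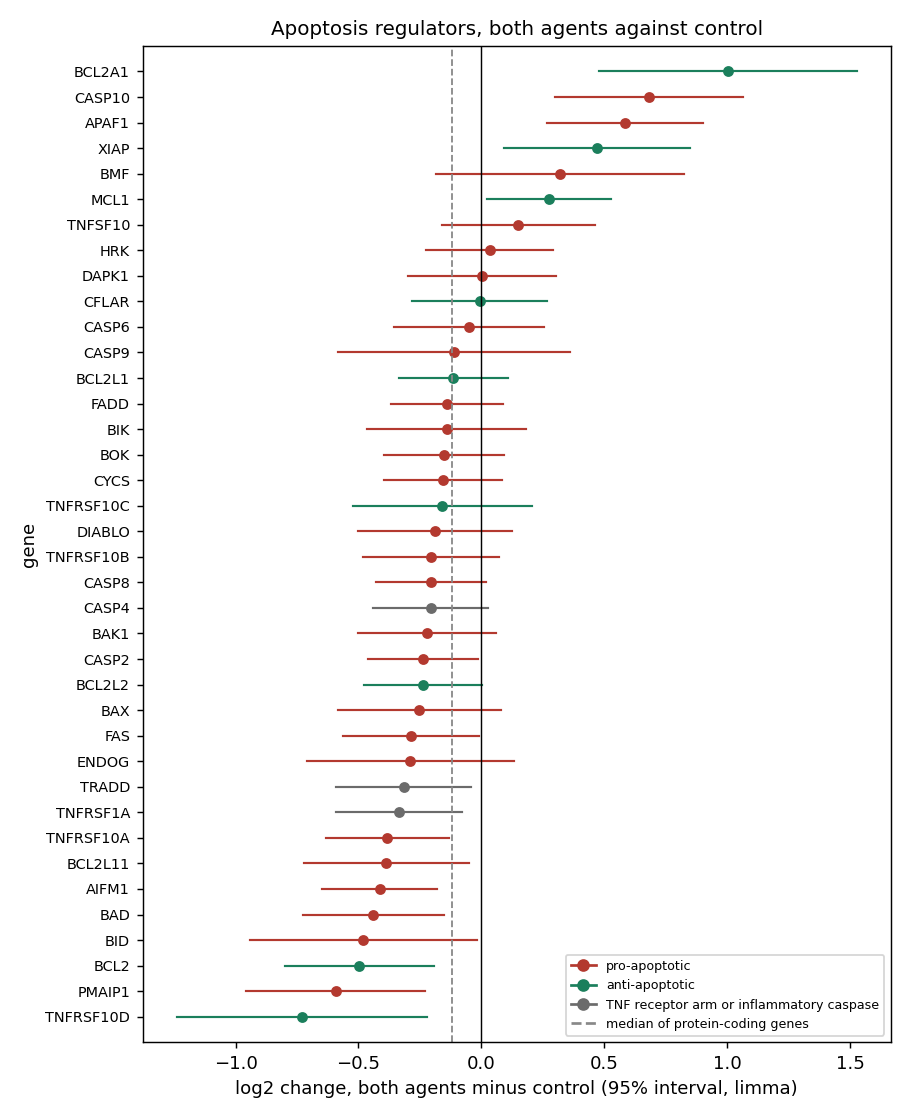
Log2 difference between the combination and control for the 38 tested regulators (points, with 95% intervals from limma as lines, n = 2 arrays per group), sorted by size and coloured by role. Among the members above background the points run from -0.59 for PMAIP1 to 1.002 for BCL2A1. CASP10 and TNFRSF10D are at or near background, so their points give no fold, and most points lie left of 0 and of the dashed line, which marks the median of protein-coding genes at -0.12.

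Among the survival members of the BCL2 family, which bind and restrain the death-promoting members, BCL2A1 had the largest difference. BCL2A1 encodes a survival protein known as a target of NF-κB. Its log2 level was 5.96 and 5.23 in untreated cells, 5.95 and 6.08 with calcitriol, 6.37 and 6.13 with TGF-β1, and 6.71 and 6.49 with the combination. The combination arrays lay above every other array, and the controls differed between themselves. The combination minus control difference was 1.002 ± 0.23 (SE, n = 2 per group), a 2.00-fold difference with a 95% interval of 0.48 to 1.53 on the log2 scale and an adjusted p = 0.0631. Without control replicate B, the lower control, the difference was 0.64 (adjusted p = 0.166). The full difference passed after loess over protein-coding genes (adjusted p = 0.0493), among protein-coding genes alone (0.0454), with trended moderation (0.00346) and without control replicate A (0.0319, difference 1.37). Over all alternatives its adjusted p ran from 0.00346 to 0.227.

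BCL2 itself, the founding survival protein, went the other way. It stood at 6.56 and 6.77 in untreated cells, 6.34 and 6.60 with calcitriol, 6.49 and 6.37 with TGF-β1, and 6.22 and 6.12 with the combination. Both combination arrays were the lowest of the 8. The difference from control was -0.50 ± 0.13 (95% interval -0.80 to -0.19, adjusted p = 0.0855).

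MCL1, a short-lived survival protein, stood at 9.82 and 9.67 in untreated cells, 10.02 and 9.85 with calcitriol, 9.89 and 9.88 with TGF-β1, and 9.99 and 10.05 with the combination. All 6 treated arrays lay above both controls, with a combination difference of 0.27 ± 0.11 (adjusted p = 0.179). BCL2L1, whose main product is Bcl-xL, stood at 9.72 and 9.64 in untreated cells, 9.84 and 9.77 with calcitriol, 9.45 on both TGF-β1 arrays, and 9.58 and 9.54 with the combination. It was therefore above control with calcitriol (0.13, adjusted p = 0.792) and below it with TGF-β1 (-0.23, adjusted p = 0.385). A gene-level feature does not separate the long and short BCL2L1 transcripts, which act in opposite ways. BCL2L2 had a combination difference of -0.24 ± 0.10 (adjusted p = 0.212).

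The effectors BAX, BAK1 and BOK, which form or are related to the pore of the outer membrane, stood close to control. Their combination differences were -0.25 for BAX, -0.22 for BAK1 and -0.15 for BOK, with a lowest adjusted p of 0.308. BAK1 had log2 means of 7.35, 7.32 and 7.34 in control, calcitriol and TGF-β1 cells and 7.13 in the combination.

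Of the BH3-only genes, which sense damage or loss of growth signals, 7 were tested, and 4 stood below control in the combination at an unadjusted p under 0.05 and 0 above, where 14.9% of all genes and 20.1% of protein-coding genes stood below. After loess 2 of the 7 did, against 10.6% of protein-coding genes. PMAIP1, which encodes NOXA, an antagonist of MCL1, stood at 6.99 and 6.64 in untreated cells, 6.43 and 6.40 with calcitriol, 6.05 and 6.31 with TGF-β1, and 6.11 and 6.34 with the combination. All 6 treated arrays lay below both controls. The difference was -0.40 ± 0.16 with calcitriol (adjusted p = 0.655), -0.64 ± 0.16 with TGF-β1 (adjusted p = 0.158) and -0.59 ± 0.16 with the combination (adjusted p = 0.0859). With trended moderation the TGF-β1 and combination differences passed (adjusted p = 0.0358 and 0.0223).

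BAD, a BH3-only protein held inactive by phosphorylation downstream of growth factors, stood at 8.87 and 8.81 in untreated cells, 8.55 and 8.63 with calcitriol, 8.36 and 8.64 with TGF-β1, and 8.33 and 8.47 with the combination. Here too the controls were the highest 2 arrays, and the combination difference was -0.44 ± 0.12 (95% interval -0.73 to -0.15, adjusted p = 0.0969). BID, which links caspase-8 to the mitochondria, had a difference of -0.48 ± 0.20 (adjusted p = 0.196), but the combination arrays differed from each other, at 7.67 and 8.24. BCL2L11, which encodes BIM, had a difference of -0.39 ± 0.14 (adjusted p = 0.162). It had means of 6.90 in control and 6.87 with TGF-β1 against 6.52 in the combination. BMF (0.32), HRK (0.03) and BIK (-0.14) had adjusted p-values of 0.401 or more, and the BMF controls lay apart, at 5.69 and 6.45.

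Downstream of the mitochondria, APAF1, the scaffold of the apoptosome, had the second largest positive difference of the members above background. APAF1 stood at 6.56 and 6.26 in untreated cells, 6.57 and 6.61 with calcitriol, 6.74 and 6.49 with TGF-β1, and 7.03 and 6.97 with the combination. The combination arrays were the highest of the 8. They exceeded control by 0.58 ± 0.14 (95% interval 0.27 to 0.90, adjusted p = 0.0683), calcitriol by 0.41 (adjusted p = 0.252) and TGF-β1 by 0.38 (adjusted p = 0.526). The difference from control passed after loess (0.69, adjusted p = 0.0389), among protein-coding genes alone (0.0456) and with trended moderation (0.014), and its adjusted p over all alternatives ran from 0.014 to 0.226.

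XIAP, which blocks caspases directly, stood at 7.09 and 6.84 in untreated cells, 7.29 and 7.02 with calcitriol, 7.45 and 7.14 with TGF-β1, and 7.55 and 7.32 with the combination. TGF-β1 and combination arrays lay above both controls, with a combination difference of 0.47 ± 0.16 (adjusted p = 0.142). AIFM1, a mitochondrial flavoprotein that can act as a caspase-independent death factor, stood at 8.47 and 8.34 in untreated cells, 8.20 and 8.28 with calcitriol, 8.21 and 8.16 with TGF-β1, and 8.03 and 7.96 with the combination. All 6 treated arrays were below both controls and the combination arrays were lowest, at -0.41 ± 0.10 (95% interval -0.65 to -0.18, adjusted p = 0.0736). The difference was -0.30 after loess (adjusted p = 0.126), and it passed among protein-coding genes alone (adjusted p = 0.0456) and with trended moderation (0.00976). The remaining genes of this step, CYCS (cytochrome c, -0.16), DIABLO (an antagonist of XIAP, -0.19) and ENDOG (a mitochondrial nuclease, -0.29), had adjusted p-values of 0.367 or more in the combination. CYCS has processed pseudogenes that the array may not separate from it.

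The 250 bases upstream of the annotated start are shown for BCL2A1, APAF1, AIFM1 and PMAIP1, the 4 members above background with the lowest unadjusted p in any comparison with control. RefSeq start windows (GRCh38.p14) were at hand for 31 of the 41 members. Capitals mark matches on either strand to 4 motifs, namely the SMAD box CAGAC, the SMAD GC-rich element GGCGC, the vitamin D receptor direct repeat and the NF-κB site, and matches to GGCGC on opposite strands can overlap. Of 35116 such windows, 38% hold CAGAC, 44.5% hold GGCGC, 0.202% hold the vitamin D receptor repeat and 9.96% hold the NF-κB site. BCL2A1 lies at chr15:79971197-79971446 (minus strand), APAF1 at chr12:98645040-98645289 (plus), AIFM1 at chrX:130165842-130166091 (minus) and PMAIP1 at chr18:59899746-59899995 (plus).
BCL2A1: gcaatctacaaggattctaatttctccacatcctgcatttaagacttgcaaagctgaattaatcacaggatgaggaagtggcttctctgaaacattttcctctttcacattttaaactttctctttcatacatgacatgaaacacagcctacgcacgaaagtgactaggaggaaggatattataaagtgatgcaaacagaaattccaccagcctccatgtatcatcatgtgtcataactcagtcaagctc
APAF1: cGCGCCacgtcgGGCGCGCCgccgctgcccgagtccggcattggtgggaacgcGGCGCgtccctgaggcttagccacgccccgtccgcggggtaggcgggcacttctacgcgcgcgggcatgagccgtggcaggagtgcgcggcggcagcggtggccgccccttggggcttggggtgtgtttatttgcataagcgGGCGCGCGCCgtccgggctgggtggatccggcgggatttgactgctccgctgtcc
AIFM1: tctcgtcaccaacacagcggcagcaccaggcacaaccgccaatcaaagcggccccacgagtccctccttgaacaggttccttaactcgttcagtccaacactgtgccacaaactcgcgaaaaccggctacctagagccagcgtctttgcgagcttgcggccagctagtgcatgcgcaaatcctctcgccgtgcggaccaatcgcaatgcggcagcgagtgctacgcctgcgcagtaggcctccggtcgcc
PMAIP1: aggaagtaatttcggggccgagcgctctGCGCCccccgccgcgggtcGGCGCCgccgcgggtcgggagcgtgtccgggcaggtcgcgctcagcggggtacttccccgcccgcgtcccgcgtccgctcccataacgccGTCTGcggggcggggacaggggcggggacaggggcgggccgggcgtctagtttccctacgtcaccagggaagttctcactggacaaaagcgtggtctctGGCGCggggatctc
The APAF1 window holds 6 matches to GGCGC, the PMAIP1 window holds 4 to GGCGC and 1 to CAGAC, and the BCL2A1 and AIFM1 windows hold 0 of the 4 motifs. The windows differ in base composition, with 38.8% G or C for BCL2A1, 73.6% for APAF1, 60.8% for AIFM1 and 72.8% for PMAIP1. A match is a string of letters and not evidence of binding.

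Among the apoptotic caspases, CASP10, an initiator recruited by death receptors, was the member with the lowest p with TGF-β1, but no array of any group lay above background for it. Its level was 3.83 on both control arrays, 4.22 and 4.24 with calcitriol, 4.65 and 4.51 with TGF-β1, and 4.25 and 4.77 with the combination. All 6 treated arrays exceeded the controls, and no fold is given because every value is at background (adjusted p = 0.123 with TGF-β1 and 0.073 with the combination). CASP1, an inflammatory caspase that was not tested, was also at background on all arrays, between 3.15 and 3.88.

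CASP8, the main initiator of the receptor route, had log2 means of 8.41 in untreated cells, 8.47 with calcitriol, 8.29 with TGF-β1 and 8.20 in the combination. Its difference was -0.20 ± 0.10 from control (adjusted p = 0.247, or -0.09 after loess) and -0.27 ± 0.10 from calcitriol (adjusted p = 0.275). CASP2 stood at 9.79 on both combination arrays and between 9.96 and 10.13 on the other 6, with a difference from control of -0.24 ± 0.10 (adjusted p = 0.189), or -0.12 after loess. CASP9, the initiator of the apoptosome, had differences of -0.36 with calcitriol, 0.23 with TGF-β1 and -0.11 with the combination. Its calcitriol arrays lay apart, at 5.27 and 4.63, the second barely above the background of 4.62 on that array. CASP6 (-0.05) and the inflammatory caspase CASP4 (-0.21) had adjusted p-values of 0.843 and 0.259 in the combination.

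**Figure D2:**
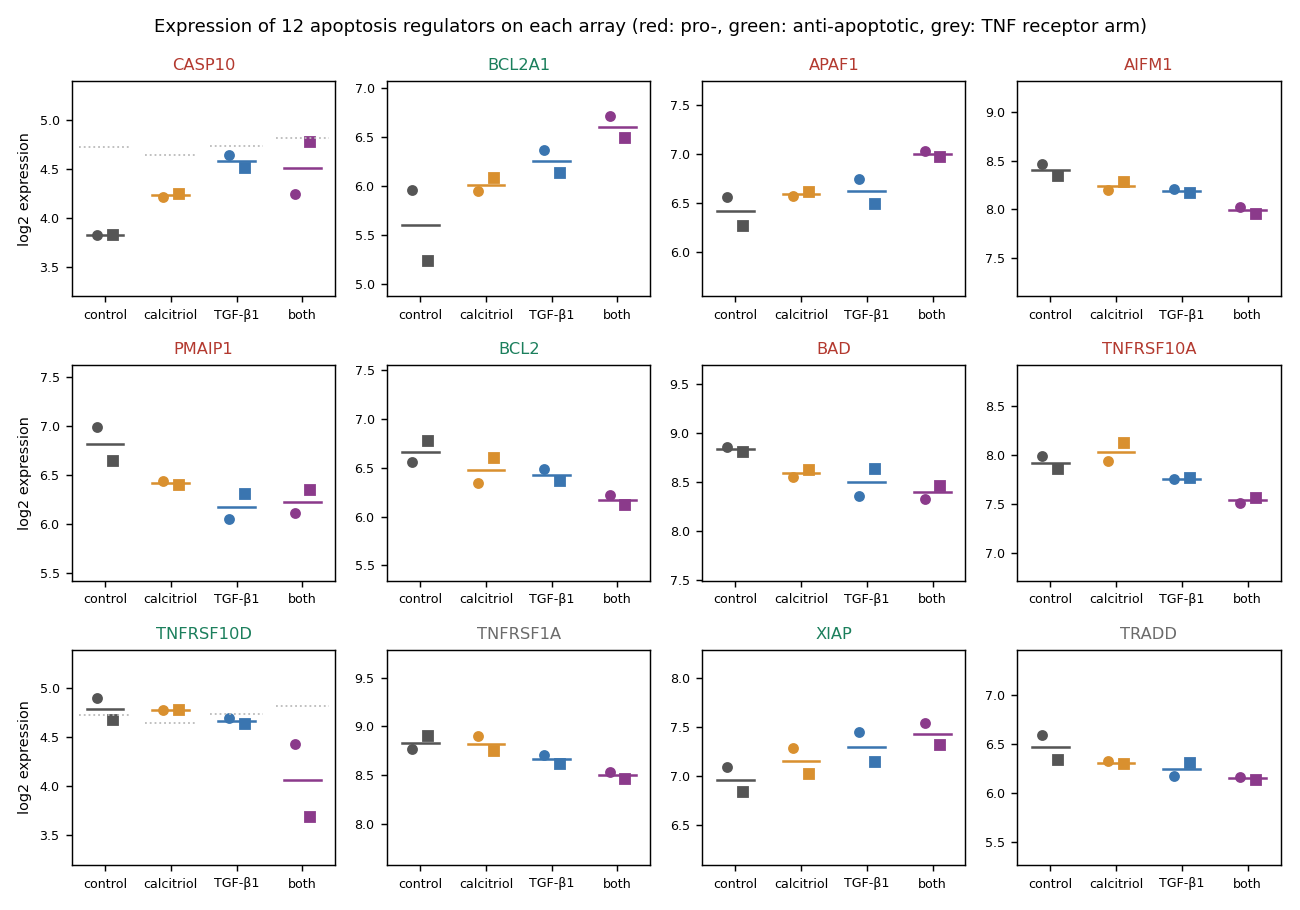
Log2 expression of 12 regulators on every array (circles for replicate A, squares for replicate B, short bars for group means, dotted lines for the mean background level where it falls inside the panel). Each panel spans 2.2 log2 units, so slopes can be set side by side but levels of different genes cannot. BCL2A1 and APAF1 are highest and AIFM1, BCL2 and TNFRSF10A lowest on the combination arrays, and CASP10 lies under background throughout.

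In the receptor route, TNFRSF10A, the TRAIL receptor DR4, stood at 7.99 and 7.86 in untreated cells, 7.94 and 8.12 with calcitriol, 7.75 and 7.76 with TGF-β1, and 7.51 and 7.56 with the combination. The TGF-β1 arrays lay below control and the combination arrays below both, at -0.38 ± 0.11 from control (adjusted p = 0.0973), -0.49 ± 0.11 from calcitriol (adjusted p = 0.129) and -0.22 ± 0.11 from TGF-β1 (adjusted p = 0.563). With trended moderation the first and second of these passed (adjusted p = 0.0275 and 0.0144). TNFRSF10B, the other signalling TRAIL receptor (DR5), had differences from control of -0.22 with calcitriol, -0.24 with TGF-β1 and -0.20 with the combination, with a lowest adjusted p of 0.335. The TRAIL receptors are close relatives, and the array may not fully separate them.

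TNFRSF10D, a decoy that binds TRAIL without a working death domain, was near background. It stood at 4.90 and 4.68 in untreated cells, 4.77 and 4.78 with calcitriol, 4.70 and 4.63 with TGF-β1, and 4.43 and 3.69 with the combination. Only 1 control array and both calcitriol arrays were above background, so no fold is given (adjusted p = 0.109 for the combination against control). The other decoy, TNFRSF10C, had a combination difference of -0.16 from control (adjusted p = 0.568) and -0.35 from calcitriol (adjusted p = 0.356). TNFSF10, which encodes TRAIL, stood between 5.60 and 5.98 on all arrays, with a combination difference of 0.15 ± 0.13 (adjusted p = 0.528). FAS, another death receptor, had a difference of -0.29 ± 0.12 (adjusted p = 0.198; -0.18 after loess), with combination arrays at 6.40 and 6.43 and controls at 6.84 and 6.57.

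TNFRSF1A, the main receptor of tumour necrosis factor, stood at 8.77 and 8.91 in untreated cells, 8.90 and 8.75 with calcitriol, 8.71 and 8.61 with TGF-β1, and 8.53 and 8.47 with the combination. Combination arrays were the lowest, with a difference of -0.34 ± 0.11 (adjusted p = 0.129), which was -0.22 after loess (adjusted p = 0.258). Its adaptor TRADD stood at 6.60 and 6.34 in untreated cells, 6.33 and 6.29 with calcitriol, 6.18 and 6.31 with TGF-β1, and 6.17 and 6.14 with the combination. All treated arrays of TRADD lay below both controls, though the nearer calcitriol array almost met control replicate B, and the combination difference was -0.32 ± 0.12 (adjusted p = 0.161), which was -0.21 after loess and -0.19 without control replicate A. The adaptor FADD (-0.14) and the caspase-8 inhibitor CFLAR (-0.01) had adjusted p-values of 0.422 and 0.978 in the combination. DAPK1, a calcium-regulated kinase linked to cell death, had differences of -0.22 with calcitriol, -0.20 with TGF-β1 and 0.00 with the combination. DAPK1 was the only member with an unadjusted p under 0.05 for the interaction (0.43 ± 0.18, adjusted p = 0.954), where 5.15% of all genes reached that level.

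**Figure D3:**
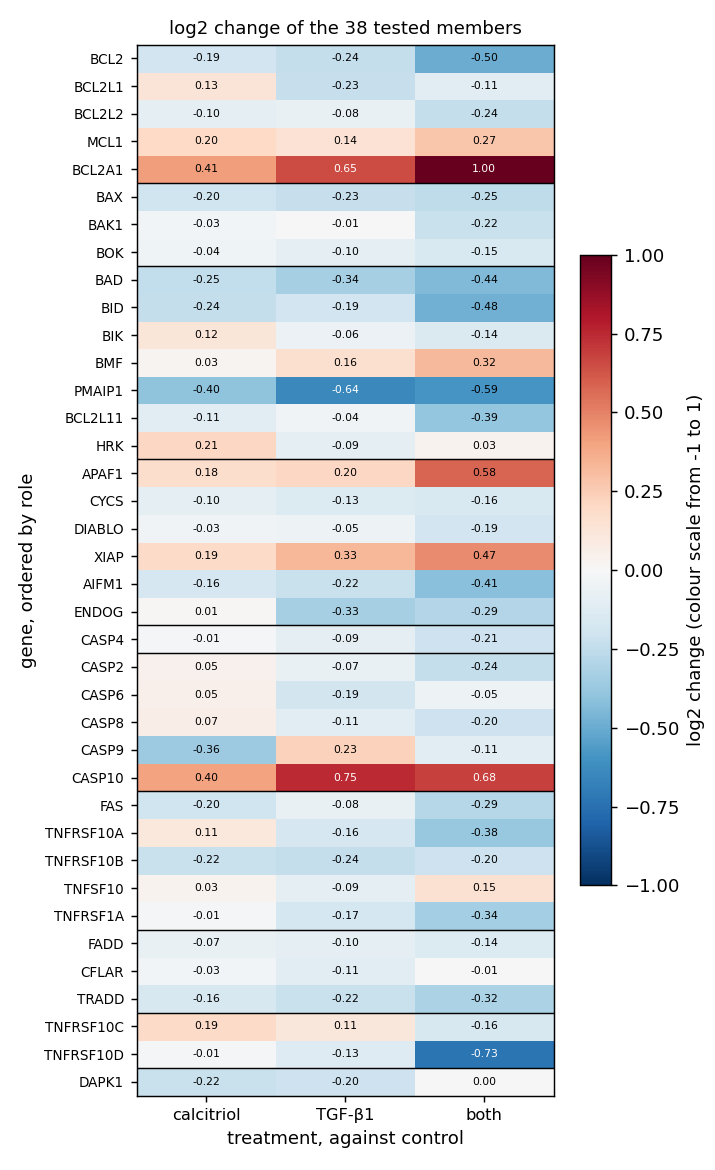
Log2 difference from control for the 38 tested regulators (rows, ordered and ruled off by role) with calcitriol, TGF-β1 and the combination (columns), each cell the difference of means of 2 arrays with its value printed. Red is above and blue below control. PMAIP1, BAD and AIFM1 are blue and BCL2A1, APAF1 and XIAP red in all 3 columns, and the 3 columns share the control arrays. The cells of CASP10 and TNFRSF10D are at or near background and give no fold.

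The combination was also set against each single agent. Against calcitriol, 10 of 38 members had an unadjusted p under 0.05 (26.3%, against 14.7% of all genes and 15.7% of protein-coding genes). Of these, 2 stood above (6.36% of all genes and 4.91% of protein-coding genes) and 8 below (8.38% and 10.8%). BCL2A1 (0.59 ± 0.23, adjusted p = 0.299) and APAF1 stood above. Those below included TNFRSF10A, TNFRSF1A (-0.32, adjusted p = 0.257), CASP2 (-0.28, adjusted p = 0.259) and BCL2L1 (-0.24, adjusted p = 0.306). Against TGF-β1 there were 3 (7.89%, against 9.26% of all genes and 8.45% of protein-coding genes). APAF1 stood above (4.1% of all genes and 2.18% of protein-coding genes). TNFRSF10D and BCL2L11 (-0.35 ± 0.14, adjusted p = 0.537) stood below (5.16% and 6.27%). TNFRSF10D lay under background on every TGF-β1 and combination array, so its difference from TGF-β1 is one between groups at background. It is also among the 8 below calcitriol. After loess, BCL2L1 (-0.17 against calcitriol) and BCL2L11 (-0.30 against TGF-β1) were among the members no longer below at that level. No counts after loess are given for these comparisons, because the shares of protein-coding genes were not computed.

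The width of the intervals sets what these arrays could show. The 95% interval of a member's difference from control extended between 0.22 and 0.52 on either side, with a median of 0.295. With calcitriol the interval lay within a 2-fold difference in both directions for 38 of 38 members, and within a 1.5-fold difference for 33. With TGF-β1 the counts were 35 and 28, and with the combination 35 and 22. The 3 members whose combination interval reached past 2-fold were BCL2A1, CASP10 and TNFRSF10D, of which the last 2 are at or near background. These are intervals for single genes, without adjustment for their number, and for low signals they can understate a change.

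Of 60 further genes of the death pathways, 55 had a feature and 51 were tested. With the combination 3 of them rose and 0 fell, while 1.12% of all genes rose and 1.15% fell, and 0 passed with calcitriol or with TGF-β1 alone. At an unadjusted p under 0.05 there were 4 with calcitriol (7.84%, against 7.34% of all genes), 9 with TGF-β1 (17.6%, against 12.6%) and 14 with the combination (27.5%, against 23.8%). CASP14, a caspase of keratinocyte differentiation that is not known as an executioner of apoptosis, stood at 7.71 and 7.89 in untreated cells, 8.70 and 8.76 with calcitriol, 8.26 and 8.17 with TGF-β1, and 8.85 and 8.77 with the combination. It rose by 1.01 ± 0.11 with the combination (2.01-fold, adjusted p = 0.00931), and its difference was 0.93 ± 0.11 with calcitriol (adjusted p = 0.133) and 0.41 ± 0.11 with TGF-β1 (adjusted p = 0.183).

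CYLD and TNFAIP3 encode deubiquitinases that restrain NF-κB signalling from the tumour necrosis factor receptor and shape the choice between survival and death there. CYLD stood at 6.20 and 6.13 in untreated cells, 6.52 and 6.43 with calcitriol, 7.05 and 6.74 with TGF-β1, and 7.10 and 7.20 with the combination. Every treated array exceeded both controls, and the combination rose by 0.99 ± 0.13 (1.98-fold, adjusted p = 0.0172), with 0.74 for TGF-β1 (adjusted p = 0.0617). TNFAIP3 stood at 8.10 and 7.75 in untreated cells, 8.41 and 8.19 with calcitriol, 8.33 and 8.37 with TGF-β1, and 8.68 on both combination arrays. It rose by 0.76 ± 0.14 with the combination (1.69-fold, adjusted p = 0.0424). None of the 3 genes passed without control replicate B or without either combination array, with adjusted p-values between 0.0524 and 0.163, and TNFAIP3 also failed without any 1 of the calcitriol or TGF-β1 arrays and without a filter on low values (0.089).

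Next to these, the survivin gene BIRC5 had a combination difference of -0.57 ± 0.11 (adjusted p = 0.051). The inhibitor of apoptosis BIRC2, which ubiquitinates RIPK1, had one of 0.59 ± 0.17 (adjusted p = 0.097). PAWR, a pro-apoptotic repressor, stood at 8.25 and 8.27 in untreated cells, 8.10 and 8.02 with calcitriol, 8.68 and 8.66 with TGF-β1, and 8.62 on both combination arrays. Its difference was 0.41 ± 0.09 with TGF-β1 (adjusted p = 0.133) and 0.56 ± 0.09 between the combination and calcitriol (adjusted p = 0.0571). These 3 genes were chosen after their values were seen. The remaining genes of this list had adjusted p-values of 0.0978 or more in the combination.

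**Figure D4:**
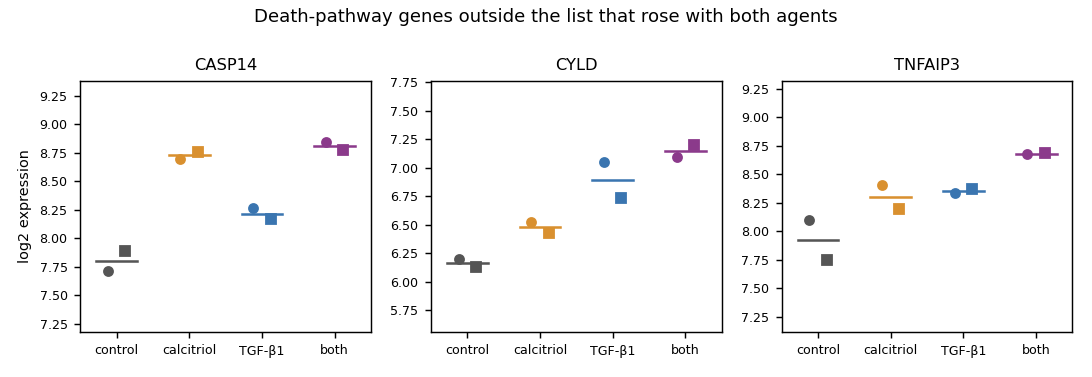
Log2 expression of CASP14, CYLD and TNFAIP3 on every array (circles for replicate A, squares for replicate B, bars for group means, 2 arrays per group). All treated arrays exceed both controls in the 3 panels, and the combination differences from control are 1.01, 0.99 and 0.76.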

How the data were processed

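RNA of 8 PC-3 cultures was measured on Clariom D arrays. The values are log2 expression as deposited by the authors, and the submitters' processing notes name RMA, oligo and limma, with versions and genome build not given in the sources used here. That the base is 2 was taken from the range of the values. Of 138745 array features, 36176 carry 1 gene symbol. A gene was represented by its brightest feature on average, and genes had to exceed 4.34, the 50th percentile of all values, on at least 2 arrays, which kept 23854 genes, 14793 of them protein-coding. limma 3.58.1 in R 4.3.3 was fitted with 1 mean per group over all 8 arrays (4 residual degrees of freedom), with Benjamini-Hochberg adjustment of eBayes p-values across the genes of a comparison, with a threshold of 0.05. An exact permutation test of 2 against 2 arrays cannot go below p = 0.3333, so none is given. The number of arrays limits the precision, and levels of different features are not comparable. In bulk RNA, fewer cells of a kind and less RNA per cell cannot be told apart.

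The background level is the 95th percentile of 612 negative control features on each array. A member at background in both groups gets no fold. The members and all gene lists were chosen with earlier results of these data known. Values on every array and full statistics are given for the 12 members with the lowest unadjusted p against control, since none passed, and for the other death-pathway genes that passed. No pairing of the arrays by replicate letter was evident over all genes. The correlation of the A minus B differences between groups lay between -0.084 and 0.081, which does not exclude pairing in single genes. The alternatives were no filter, the mean of all features of a gene, cyclic loess over protein-coding genes, protein-coding genes alone, trended or robust moderation, a replicate block and leaving out each array.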

Additional observations from a re-analysis of the deposited data

How the results depend on the processing

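The count of members that passed stayed at 0 of 38 under most alternatives. With trended moderation it was 1 for TGF-β1 (PMAIP1), 12 for the combination against control and 2 for the combination against calcitriol (CASP2 and TNFRSF10A), where 3.01%, 12.6% and 4.09% of all genes passed. For the combination against control it was 2 after loess (BCL2A1 and APAF1, with 3.87% of genes) and 3 among protein-coding genes alone, and it ran from 0 to 1 over the leave-one-out fits, the 1 being BCL2A1 without control replicate A. With the replicate block it was 0 in all 6 comparisons. Leaving out an array leaves 1 in its group, which is assumed to vary like the others. TNFAIP3 also failed under the replicate block (adjusted p = 0.0601). No value reversed its sign while passing the test. With calcitriol against control, 2 of all genes passed at first, 19 with trended moderation and 0 with the replicate block. Over all genes, the count for the combination against control was 542, and it was 134 without the filter, 931 among protein-coding genes alone, 2996 with trended moderation, 213 with the replicate block and 13 to 218 over the leave-one-out fits. For TGF-β1 against control these counts were 145, 38, 242, 719, 43 and 12 to 48, with 271 after loess. For the combination against calcitriol they were 140 at first, 56 without the filter, 976 with trended moderation, 66 with the replicate block and 0 to 83 over the leave-one-out fits.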
